A study of Mus musculus with 12 samples.

Results

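The genes described here are 10 genes of alternative, repair-type macrophage activation: Arg1, Mrc1, Chil3, Retnla, Il4ra, Cd163, Msr1, Tgfb1, Il1rn and Fn1. They were chosen by symbol from known roles, and all 10 were found among the 25655 genes of each deposited table. RNA-seq was performed on whole retinas of C57BL/6J mice, 8-10 weeks old, collected 2 days after crush of the optic nerve. After the crush, the eye received 1 intravitreal injection of PBS as control, of the cholesterol-lowering drug fluvastatin, of matrix-bound nanovesicles (MBV), or of both agents. Each of the 4 groups had 3 libraries, and counts per gene that name their library were used for PBS, fluvastatin and MBV, 9 libraries in all, while the combined treatment was not analysed here. All groups shared the crush, so no uninjured retina enters any comparison. The MBV came from porcine urinary bladder, so that group received material of another species. The labels do not say whether 1 retina or several made a library, so the p-values measure the spread between these libraries, which may be partly technical.

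Macrophages that meet interleukin 4 or interleukin 13 bind them through receptors that contain the Il4ra chain, which activates the transcription factor STAT6 and with it a set of genes for scavenging, arginine breakdown, restraint of inflammation and matrix repair. Arg1, Chil3, Retnla and Mrc1 are the usual mouse markers of this state. In the retina such genes can come from blood-derived monocytes, from macrophages at the vessels and meninges, or from microglia, and some of them, Fn1 and Tgfb1 above all, are also made by endothelial, mural and glial cells. In RNA of a whole retina, fewer cells of a type and less RNA per cell cannot be told apart.

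RefSeq promoter windows (build GRCm38.p6, 250 bases before to 50 bases after the start of transcription) were found for 7 of the 10 genes, and 4 are shown because they set 3 markers of the alternative state beside the receptor chain that leads to it. Capitals mark matches, on either strand, to TTC and GAA spaced 4 or 3 bases apart, the spacings of STAT sites, to TTGC and AA spaced 2 bases apart, a C/EBP core, and to GAGGAA, a PU.1 core, which reads TTCCTC on the opposite strand. The windows are chr16:48842359-48842658 on the plus strand for Retnla, chr3:106167515-106167814 on the minus strand for Chil3, chr2:14229164-14229463 on the plus strand for Mrc1 and chr7:125552021-125552320 on the plus strand for Il4ra.
Retnla: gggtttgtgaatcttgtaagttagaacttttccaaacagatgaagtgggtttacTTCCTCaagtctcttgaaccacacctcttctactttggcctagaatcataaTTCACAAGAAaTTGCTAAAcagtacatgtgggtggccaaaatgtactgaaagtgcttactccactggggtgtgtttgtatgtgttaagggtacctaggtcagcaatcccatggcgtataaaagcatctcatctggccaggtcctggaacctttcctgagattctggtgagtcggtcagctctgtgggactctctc
Chil3: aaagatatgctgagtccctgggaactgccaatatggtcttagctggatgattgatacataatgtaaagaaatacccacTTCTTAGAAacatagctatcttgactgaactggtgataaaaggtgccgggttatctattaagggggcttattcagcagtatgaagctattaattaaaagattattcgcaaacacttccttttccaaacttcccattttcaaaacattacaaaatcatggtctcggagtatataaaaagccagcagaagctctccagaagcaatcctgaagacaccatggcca
Mrc1: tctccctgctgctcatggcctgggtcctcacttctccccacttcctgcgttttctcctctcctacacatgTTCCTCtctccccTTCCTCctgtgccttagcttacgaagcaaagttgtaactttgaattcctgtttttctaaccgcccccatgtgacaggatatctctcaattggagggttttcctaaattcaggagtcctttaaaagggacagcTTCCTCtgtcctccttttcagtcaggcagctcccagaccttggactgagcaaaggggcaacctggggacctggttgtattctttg
Il4ra: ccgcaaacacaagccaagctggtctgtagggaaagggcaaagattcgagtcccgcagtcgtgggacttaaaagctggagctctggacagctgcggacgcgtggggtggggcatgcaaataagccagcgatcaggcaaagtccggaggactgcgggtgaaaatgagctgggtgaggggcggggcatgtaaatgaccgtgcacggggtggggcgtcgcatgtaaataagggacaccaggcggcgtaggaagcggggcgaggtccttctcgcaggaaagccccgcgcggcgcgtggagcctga

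The Retnla window held the 4-base STAT spacing at -145 from the start, directly beside a C/EBP core at -134, and a PU.1 core at -196. Chil3 held the 3-base spacing at -172, and Mrc1 held the PU.1 core at -180, -167 and -35. None of these letters was found in the window of Il4ra, nor in those of Tgfb1 and Cd163. The 4-base spacing was also present in 2 of the 3 windows of Il1rn, which overlap and hold the same match. Among 32851 RefSeq promoter windows of this length, 6.95% held the 4-base spacing, 8.3% the 3-base spacing, 10.8% the C/EBP core and 28.3% the PU.1 core. A match of letters is a description of the window and not evidence of binding.

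The levels of the 10 genes spanned a wide range. Per kilobase of exon, the mean level in PBS retinas was 4.07 ± 0.92 CPM (counts per 1000000 counts of the library) per kb for Fn1 (SD, n = 3), 0.761 ± 0.076 for Il4ra, 0.433 ± 0.126 for Arg1 and 0.360 ± 0.071 for Tgfb1. Mrc1, Msr1 and Chil3 followed at 0.174 ± 0.074, 0.123 ± 0.066 and 0.109 ± 0.069 CPM per kb, and these 3 did not differ beyond their spread. Retnla, Il1rn and Cd163 were lowest, at 0.041, 0.034 and 0.015 CPM per kb. Fn1 thus stood far above the rest, and the classical markers were rare RNAs of the injured retina.

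The library totals were 26325065 to 30992040 counts for PBS, 23634662 to 27098889 for fluvastatin and 21349516 to 26738043 for MBV. Photoreceptor markers summed to 31779 to 48048 CPM per library, so the libraries carry the defining RNAs of retina. Markers of macrophages and monocytes (10 genes, among them Ccr2, Lyz2 and Csf1r) summed to 39.4 to 58.6 CPM in PBS, 34.8 to 40.8 in fluvastatin and 36.5, 46.5 and 128 CPM in MBV. MBV replicate 3 accounts for the last value and stood apart, with 67 counts of Ly6c2 where the other 8 libraries had 0 to 2, 1307 counts of Lyz2 where they had 63 to 397, and 222 counts of Ccr2 where they had 8 to 65. For the genes and lists below, a call or count that turned on leaving out that library, or another one, is given beside its main value. The PBS libraries carry library numbers of one set and the fluvastatin and MBV libraries those of another, so the treatment and the library set cannot be told apart where either agent is compared with PBS, and only MBV against fluvastatin lies within 1 set.

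**Figure D1:**
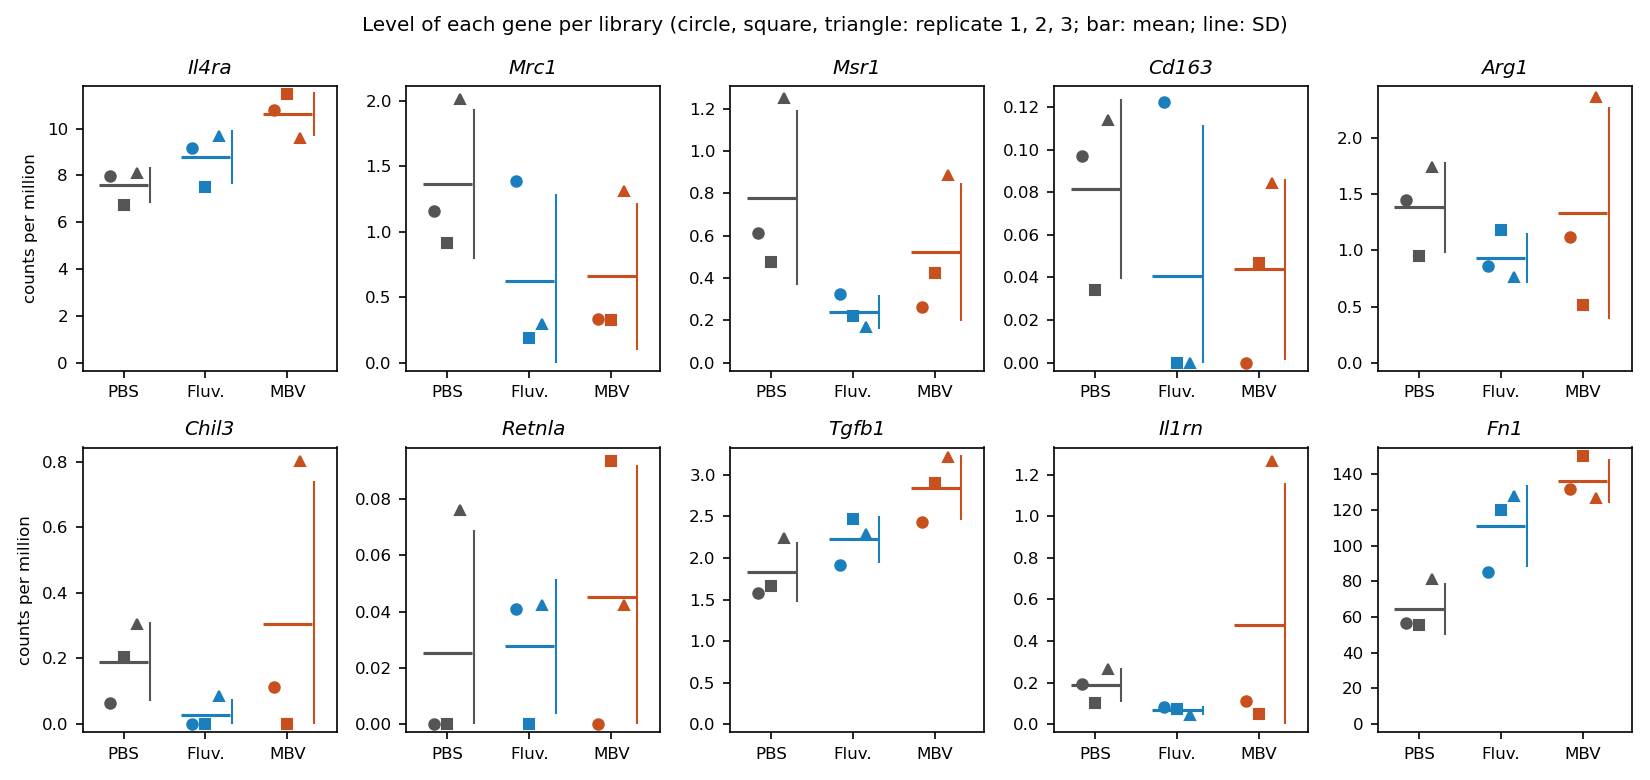
Level of each of the 10 genes, in CPM on a linear axis, in 3 libraries each of PBS, fluvastatin (Fluv.) and MBV. Symbols are libraries, horizontal bars group means and vertical lines 1 SD, drawn from 0 where the mean less the SD is negative. Fn1, Il4ra and Tgfb1 lie above the PBS range in the 3 MBV libraries, and MBV replicate 3 (triangle) carries the highest values of Arg1, Chil3, Tgfb1 and Il1rn.

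Against PBS, 2 of the 10 genes passed the test in fluvastatin-treated retinas and 2 in MBV-treated retinas (edgeR's quasi-likelihood test on counts, Benjamini-Hochberg adjusted p, or FDR, under 0.05 over all genes tested). In fluvastatin, Fn1 rose and Msr1 fell. In MBV, Fn1 and Il4ra rose and 0 fell, by edgeR and by DESeq2. At an unadjusted p under 0.05 in edgeR, Chil3 joined the fluvastatin calls, as lower, and Tgfb1 the MBV calls, as higher. This made 3 of 10 in each, beside 32.5% of all genes for fluvastatin and 37.8% for MBV at that threshold. Of all 18818 genes tested for fluvastatin, 19.6% were called, 9.36% higher and 10.2% lower, and of all 18897 tested for MBV, 26.1% were called, 12% higher and 14.1% lower, so counts of 2 of 10 are near the background. The comparisons share the PBS libraries and are not independent of each other.

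Il4ra encodes the chain shared by the receptors for interleukin 4 and interleukin 13 (chr7:125151292-125178646, plus strand, GRCm39 as for all gene positions given here). It gave 247, 198 and 213 counts in the PBS libraries, 225, 203 and 229 in fluvastatin and 289, 245 and 227 in MBV, or 6.72 to 8.09, 7.49 to 9.69 and 9.59 to 11.5 CPM. The 3 MBV libraries lay above the 3 PBS libraries, while fluvastatin overlapped both. Il4ra rose 1.37-fold in MBV against PBS (log2 fold change 0.45, 95% interval 0.22 to 0.68, FDR 0.0123 by edgeR's quasi-likelihood test). The fluvastatin difference from PBS was 0.21 on the log2 scale (interval -0.06 to 0.48, FDR 0.261 in the same test). The call for MBV held in 12 of 13 alternative settings and was lost where a fold change of at least 2 was required as well. Without MBV replicate 3 the log2 fold change was 0.50.

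Its ligands were close to the limit of detection. Il4 had 0 to 1 counts in the PBS libraries, 1 to 2 in fluvastatin and 2 to 4 in MBV, which did not pass the test in MBV against PBS (edgeR FDR 0.0722). Il13 gave at most 9 counts in any library. Il10, listed with the inducers and not a ligand of Il4ra, gave at most 4. Stat6, the transcription factor under the receptor, gave 183 to 249 counts in all 9 libraries, with log2 fold changes of 0.10 for fluvastatin (FDR 0.55) and 0.03 for MBV (FDR 0.882) against PBS in the same test.

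Mrc1 encodes the mannose receptor CD206, a scavenger of mannosylated glycoproteins (chr2:14234203-14336868, plus strand). It gave 36, 27 and 53 counts in PBS, 34, 5 and 7 in fluvastatin and 9, 7 and 31 in MBV. Within each treated group, 1 library was at the level of the PBS libraries and the other 2 lay well below it. The log2 fold changes were -1.12 (SE 0.59) for fluvastatin and -1.06 (SE 0.54) for MBV, and neither passed edgeR's test, with FDR 0.22 and 0.186.

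The Mrc1 result rested on single libraries. Without fluvastatin replicate 1 the log2 fold change was -2.48 (edgeR FDR 0.0025), and without MBV replicate 3 it was -2.06 (FDR 0.00405). F13a1, another gene of border macrophages, chosen here after its values were seen, gave 27, 23 and 51 counts in PBS, 20, 3 and 9 in fluvastatin and 5, 4 and 40 in MBV. The same 2 treated libraries were the highest of their groups for both genes. The order was shared by Cbr2, with 7, 4 and 4 counts in fluvastatin and 2, 6 and 12 in MBV. It was also shared by Ms4a7, with 9, 7 and 4 counts in fluvastatin and 14, 6 and 28 in MBV. Lyve1, Stab1 and Folr2 did not share it. Lyve1 was lowest of all 9 libraries in MBV replicate 3, at 7.10 CPM, and Stab1 was at 3.80 CPM in fluvastatin replicate 1 and at 4.13 in replicate 2. The 8 border macrophage markers summed to 18.7 to 19.0 CPM in PBS, 14.8 to 16.6 in fluvastatin and 15.7 to 19.3 in MBV. Lyve1 alone gave 10.1 to 12.7 CPM of this in PBS, and Cd209f was at 0 in 8 of 9 libraries. By edgeR, Pf4 and Cbr2 were called lower in fluvastatin, 2 of 7 tested, and Pf4 and Lyve1 in MBV, 2 of 8. Over all genes, 19.6% and 26.1% were called. With single libraries left out, 1 to 3 and 0 to 3 markers were called. Pf4 gave 15, 8 and 8 counts in PBS, 0 in all 3 fluvastatin libraries and 1, 0 and 3 in MBV. The part of border macrophages in the Mrc1 values was not tested.

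Msr1 encodes the class A scavenger receptor, which takes up modified lipoproteins and debris (chr8:40034726-40095714, minus strand). It gave 19, 14 and 33 counts in PBS, 8, 6 and 4 in fluvastatin and 7, 9 and 21 in MBV. The 3 fluvastatin libraries lay below the 3 PBS libraries, and MBV overlapped both groups. In fluvastatin Msr1 fell by 1.66 on the log2 scale (interval -2.73 to -0.59, FDR 0.0356 by edgeR's quasi-likelihood test). This call held in 7 of 13 alternative settings, and leaving out PBS replicate 1, PBS replicate 3, fluvastatin replicate 2 or fluvastatin replicate 3 gave FDRs of 0.0687, 0.126, 0.119 and 0.109. The direction was kept in all 13. In MBV the log2 fold change was -0.59 (edgeR FDR 0.453), and -1.24 without MBV replicate 3 (FDR 0.0948).

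Beside the fall of Msr1 in fluvastatin, 1 of 10 macrophage and monocyte markers was called there, where 19.6% of all genes were. This was Lyz2, which encodes lysozyme and fell by 1.31 on the log2 scale (edgeR FDR 0.024), a call lost without fluvastatin replicate 3. Of the 10 markers, 4 were above 0, and their median log2 fold change was -0.09. The part of macrophage number in the Msr1 value was not tested.

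Cd163 encodes the receptor for haemoglobin bound to haptoglobin (chr6:124281615-124307486, plus strand). It gave 3, 1 and 3 counts in PBS, 3, 0 and 0 in fluvastatin and 0, 1 and 2 in MBV. At 3 counts or fewer in every library it was at the limit of detection, and no fold change is given.

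Arg1 encodes arginase 1, which turns arginine into ornithine and urea (chr10:24791119-24803382, minus strand). It gave 45, 28 and 46 counts in PBS, 21, 32 and 18 in fluvastatin and 30, 11 and 56 in MBV. All groups overlapped, and both the lowest and the highest count came from MBV. The log2 fold change was -0.55 (SE 0.30, edgeR FDR 0.236) for fluvastatin and -0.06 (SE 0.47, FDR 0.94) for MBV. Without MBV replicate 3 the MBV value was -0.76 (FDR 0.154).

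Around Arg1, 4 of 9 other genes of arginine and polyamine metabolism were called in each comparison with PBS. Over all genes, 19.6% were called in fluvastatin and 26.1% in MBV. In fluvastatin, Slc7a2, a transporter that brings cationic amino acids into the cell, fell by 1.04 on the log2 scale (edgeR FDR 0.00171). Its counts were 1253 to 1421 in PBS, 450 to 720 in fluvastatin and 399 to 793 in MBV, with no overlap between PBS and either treatment. Oat and Odc1, which use the ornithine that arginase makes, fell by 0.32 and 0.24, and Slc7a1, a second transporter, rose by 0.28. In MBV, Slc7a2, Odc1, Oat and the spermine synthase gene Sms fell, by 0.83, 0.56, 0.41 and 0.26 on the log2 scale. With any single library left out, Slc7a2 was called in both comparisons, and the count was 4 to 5 in MBV and 1 to 4 in fluvastatin, with 1 without fluvastatin replicate 2 and 2 without PBS replicate 1. The median log2 fold change of the 9 genes was -0.16 in fluvastatin and -0.26 in MBV, beside -0.01 and 0.01 over all genes tested.

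Chil3 encodes a secreted chitinase-like protein, Ym1 (chr3:106054870-106074880, minus strand). It gave 2, 6 and 8 counts in PBS, 0, 0 and 2 in fluvastatin and 3, 0 and 19 in MBV. The 2 counts of fluvastatin against 16 of PBS made a ratio of CPM of 0.144 (exact 95% counting interval 0.0161 to 0.613), and the fit gave an unadjusted p of 0.0349 and an FDR of 0.12 in edgeR's test. Most of the MBV signal lay in 1 library. The reads of a near-identical neighbour could be confused with it, and Chil4 was listed at 0 in all 9 libraries.

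Retnla encodes the secreted resistin-like molecule RELM alpha (chr16:48662914-48664824, plus strand). It gave 0, 0 and 2 counts in PBS, 1, 0 and 1 in fluvastatin and 0, 2 and 1 in MBV, at the limit of detection, so the marker with the STAT spacing and the C/EBP core side by side in its promoter was barely read in any group. Its relatives Retnlb and Retnlg gave at most 3 and 6 counts in any library.

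Tgfb1 encodes transforming growth factor beta 1 (chr7:25386427-25404502, plus strand). It gave 49, 49 and 59 counts in PBS, 47, 67 and 54 in fluvastatin and 65, 62 and 76 in MBV, or 1.58 to 2.24, 1.92 to 2.47 and 2.43 to 3.21 CPM. The 3 MBV libraries lay above the 3 PBS libraries. The log2 fold change in MBV was 0.61 (interval 0.13 to 1.09), with an FDR of 0.0625 in edgeR's test, and it did not pass. It passed without PBS replicate 3 (FDR 0.0419). For fluvastatin the value was 0.30 (FDR 0.362).

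Of 13 other genes of the TGF-beta pathway, 3 were called in fluvastatin and 4 in MBV, near the 19.6% and 26.1% of all genes. The ligand Tgfb3 rose by 0.55 and 0.44 on the log2 scale (edgeR FDR 0.00252 and 0.000848). The receptors Tgfbr1 and Tgfbr3 fell, by 0.33 and 0.61 in fluvastatin and by 0.33 and 0.72 in MBV, and Ltbp1, which binds the latent ligand, fell by 0.48 in MBV. These calls held with any single library left out. The MBV count rose with MBV replicate 3 left out, where Tgfb2, Ski and Smad3 were among the added calls, all 3 higher, and where 30.1% of all genes were called.

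Il1rn encodes the interleukin 1 receptor antagonist (chr2:24226865-24241506, plus strand). It gave 6, 3 and 7 counts in PBS, 2, 2 and 1 in fluvastatin and 3, 1 and 30 in MBV. The fluvastatin libraries lay just below the PBS libraries, and MBV held both a value under the PBS range and the highest of all. The log2 fold change was -1.41 for fluvastatin (edgeR FDR 0.187) and 1.32 for MBV (FDR 0.374), and without MBV replicate 3 the MBV value turned to -1.16 (FDR 0.343). The 30 counts stand beside the macrophage and monocyte marker sum of 128 CPM in that library, and the part of those cells was not tested. Neutrophil markers summed to 5.11 CPM there and to 1.08 to 1.94 CPM in the other libraries, with Ly6g at 0 in all 9 libraries and Mpo at 0 in 8.

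Beside 19.6% of all genes, 3 of 10 other genes of the interleukin 1 family were called in fluvastatin, all lower. These were the alarmin Il33, the co-receptor Il1rap and Il18, which fell by 0.67, 0.45 and 0.57 on the log2 scale (edgeR FDR 0.00947, 0.0164 and 0.0314). In MBV, beside 26.1% of all genes, only Il33 was called, and it fell by 0.50 (edgeR FDR 0.00184). Il33 was called in both comparisons with any single library left out, whereas it was the only call in fluvastatin without PBS replicate 1, PBS replicate 2, fluvastatin replicate 2 or fluvastatin replicate 3. The median log2 fold change of the family was -0.46 in fluvastatin and -0.09 in MBV.

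Fn1 encodes fibronectin, the matrix glycoprotein that macrophages, vessels and glia lay down in repair (chr1:71624679-71692359, minus strand). It gave 1749, 1638 and 2138 counts in PBS, 2084, 3252 and 3024 in fluvastatin and 3528, 3204 and 3006 in MBV. The mean level was 64.4 ± 14.6 CPM in PBS, 111 ± 22.8 in fluvastatin and 136 ± 12.1 in MBV (SD, n = 3). All treated libraries lay above all PBS libraries, although PBS replicate 3 at 81.2 CPM and fluvastatin replicate 1 at 85.1 CPM were close.

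Fn1 rose 1.73-fold in fluvastatin (log2 fold change 0.79, interval 0.43 to 1.15, FDR 0.00781) and 2.07-fold in MBV (1.05, interval 0.76 to 1.34, FDR 0.000905) by edgeR's quasi-likelihood test. The MBV call held in 13 of 13 alternative settings, with FDRs of at most 0.0071. The fluvastatin call held in 12 of 13, with FDRs of at most 0.0466, and was lost where a fold change of at least 2 was required as well. MBV replicate 3, the library with the highest macrophage and monocyte marker sum, had the lowest Fn1 of the MBV group, 127 CPM. MBV replicates 1 and 2 had 132 and 150 CPM. The part of macrophages and monocytes in the Fn1 values was not tested.

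Fibroblasts, mural cells and Muller glia can also make fibronectin. Calls of their markers stand beside the 19.6% of all genes called in fluvastatin and the 26.1% in MBV. Of 8 fibroblast and mural markers, Dcn, Lum and Col1a1 were called lower in fluvastatin, and Lum lower and Col1a1 higher in MBV, by edgeR. With single libraries left out, 2 to 6 were called in fluvastatin and 0 to 4 in MBV. In fluvastatin Dcn and Lum held throughout, and Col1a1 was lost without PBS replicate 1, PBS replicate 2 or fluvastatin replicate 2. In MBV both calls were lost without PBS replicate 1, 2 or 3 or MBV replicate 1. The sums of the 8 markers overlapped between all groups, at 107 to 140 CPM in PBS, 118 to 125 in fluvastatin and 111 to 151 in MBV. Of 8 Muller glia markers, 6 were called lower in fluvastatin and 3 in MBV, and their sums were 3946 to 4523 CPM in PBS, 2242 to 3593 in fluvastatin and 2125 to 3562 in MBV. With single libraries left out, 2 to 7 were called in fluvastatin and 3 to 6 in MBV. Only Rlbp1 and Dkk3 were called in fluvastatin without PBS replicate 1 or fluvastatin replicate 2. In MBV 6 were called without MBV replicate 3, of which 5 were lower and Vim was higher. The part of these cells in the Fn1 values was not tested.

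Of 10 fibronectin receptors and partners, Tnc, which encodes the matrix protein tenascin C, rose in both treatments, by 0.46 and 0.57 on the log2 scale (edgeR FDR 0.0128 and 0.00186). In MBV the integrin genes Itga5 and Itga4, each the alpha chain of a fibronectin receptor, also rose, by 0.51 and 0.31 (FDR 0.0218 and 0.026). The other 9 genes in fluvastatin and 7 in MBV did not pass, so the shares called were below or near those of all genes. These counts moved with single libraries. In fluvastatin Tnc was not called without PBS replicate 1 or fluvastatin replicate 2, and Sdc4 was also called, lower, without fluvastatin replicate 1. In MBV Tnc was called with any single library left out, and alone without PBS replicate 1, PBS replicate 2 or MBV replicate 2. Without MBV replicate 3, 7 of the 10 were called, with Itgav and Cd44 also higher and Thbs1 and Spp1 lower.

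**Figure D2:**
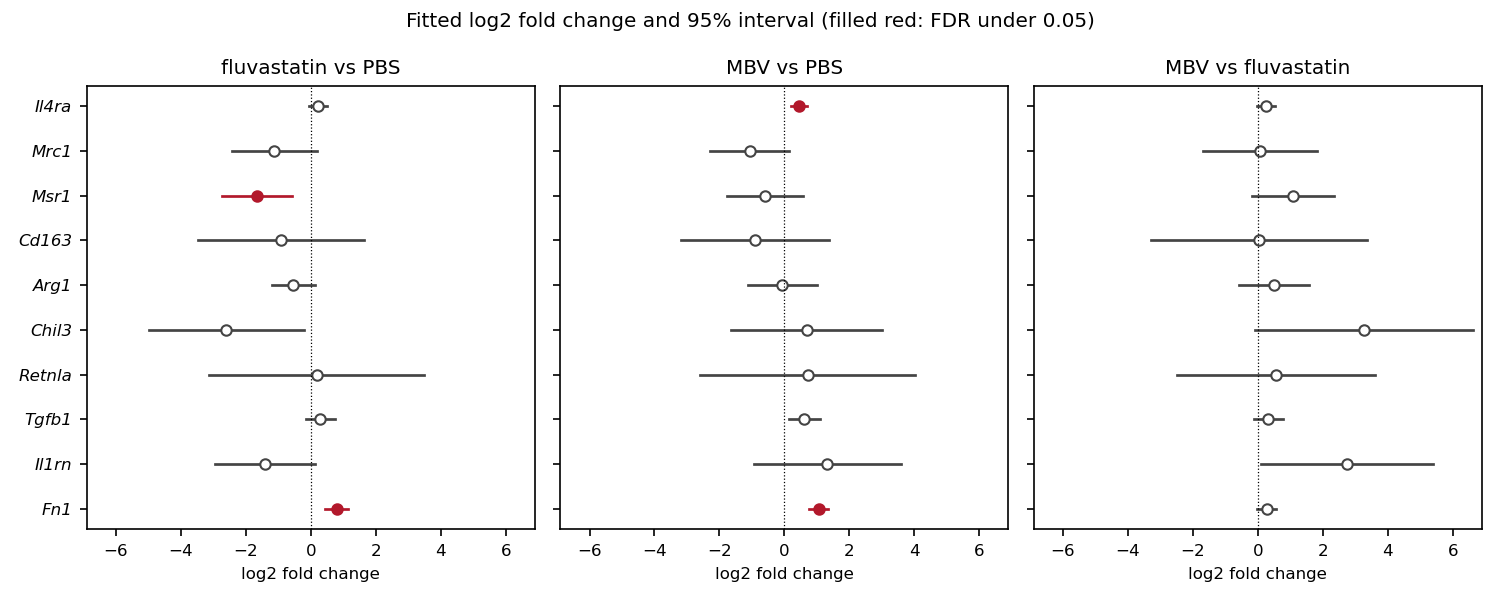
Fitted log2 fold change with its 95% interval for each of the 10 genes in 3 comparisons, on a common linear axis, with filled red symbols for an FDR under 0.05. The calls are Msr1 and Fn1 for fluvastatin against PBS, Il4ra and Fn1 for MBV against PBS and none for MBV against fluvastatin, and the widest intervals belong to Chil3, Retnla, Cd163 and Il1rn.

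By ranges of CPM that do not overlap, 1 gene (Fn1) was higher and 2 (Msr1 and Il1rn) were lower in fluvastatin than in PBS, where 16.7% and 19.8% of all genes tested were. In MBV, 3 genes (Il4ra, Tgfb1 and Fn1) were higher than in PBS and 0 lower, where 21.9% and 18.8% of all genes were. The median log2 fold change of the 10 genes was -0.74 in fluvastatin, with 4 of 10 above 0, and 0.53 in MBV, with 6 of 10 above 0. Without MBV replicate 3 the latter was -0.96. These medians and signs take in Retnla and Cd163, which were at the limit of detection. They also take in Chil3 and Il1rn, whose MBV counts lay mostly in MBV replicate 3. Without that library Chil3 was at -1.57 and Il1rn at -1.16 against PBS. The median over all genes was -0.01 in fluvastatin and 0.01 in MBV, and -0.01 in MBV without that library.

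MBV and fluvastatin were compared within 1 library set. No member was called by edgeR or by DESeq2, where edgeR called 0.0588% of 18721 genes, 0.0267% higher and 0.032% lower in MBV. The members with an unadjusted p under 0.05 numbered 1 in edgeR and 3 in DESeq2, beside 10.7% of all genes in edgeR. The one in edgeR was Il1rn, with an FDR of 0.452 in the quasi-likelihood test. All 10 log2 fold changes were above 0, with a median of 0.41, and 7 of 10 were without MBV replicate 3, with a median of 0.27. The 10 include Retnla and Cd163, which were at the limit of detection, so their signs carry little. The ranges of all 10 genes overlapped, where 10.8% of all genes lay higher in MBV and 5.35% lower.

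The well-read genes had the narrowest intervals of this difference. The log2 fold change of MBV against fluvastatin was 0.27 for Fn1 (interval -0.02 to 0.55, FDR 0.497) and 0.24 for Il4ra (interval -0.02 to 0.51, FDR 0.502) in edgeR's test. For Chil3 it was 3.28 (interval -0.08 to 6.63), and without MBV replicate 3 it was 1.03. For Il1rn it was 2.74, and 0.25 without that library. These data do not show that the agents act alike on these genes.

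**Figure D3:**
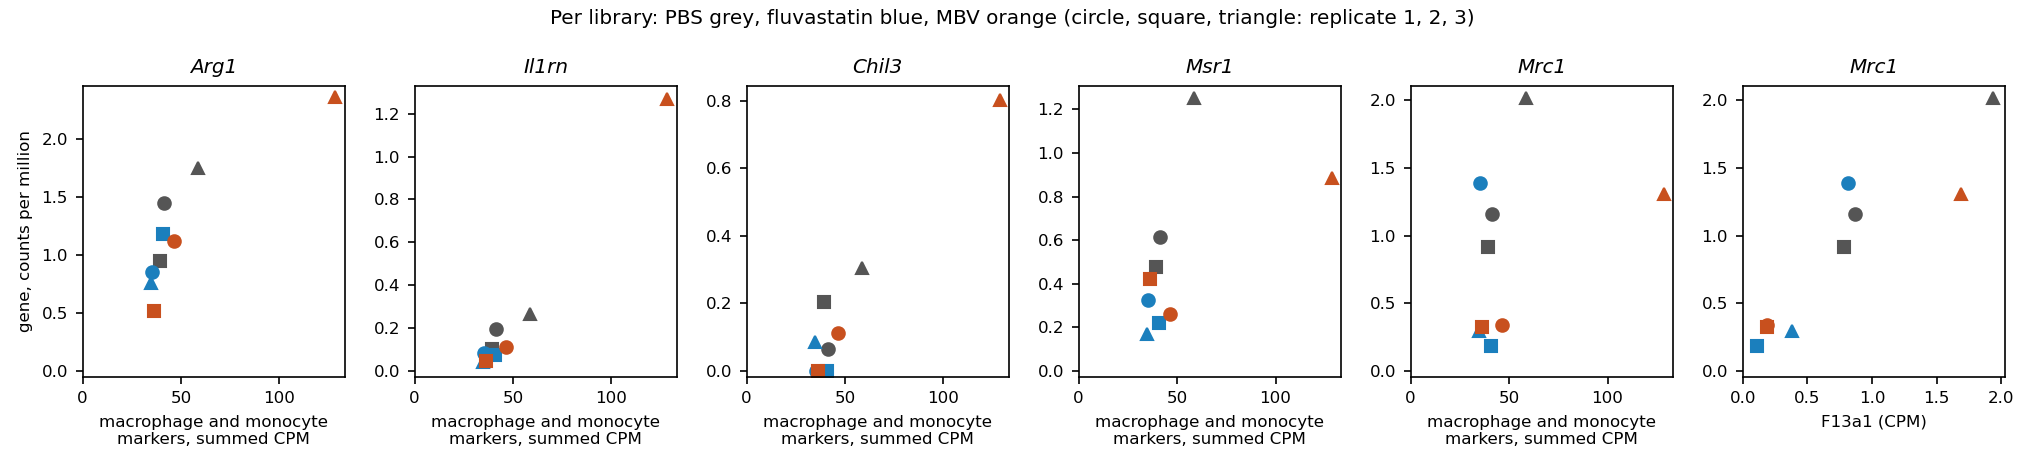
Each point is a library. The first 5 panels plot Arg1, Il1rn, Chil3, Msr1 and Mrc1, in CPM, against the summed CPM of 10 macrophage and monocyte markers, and the last plots Mrc1 against F13a1. MBV replicate 3 lies alone at 128 CPM of markers, and in the last panel fluvastatin replicate 1 and MBV replicate 3 lie with the PBS libraries. F13a1 was chosen after its values were seen. Of other border macrophage markers, Cbr2 and Ms4a7 also had both of these libraries highest in their groups, while Lyve1, Stab1 and Folr2 did not.

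The remaining lists give the setting of alternative activation. Of 15 inducers and control genes, 1 was called in each comparison with PBS, below the 19.6% and 26.1% of all genes. This was Kdm6b, a histone H3K27 demethylase, which rose by 0.57 in fluvastatin and by 0.60 in MBV on the log2 scale (edgeR FDR 0.00104 and 0.000679), from 3122 to 3259 counts in PBS to 3580 to 4739 and 3760 to 4406. Kdm6b was called with any single library left out. In MBV the count was 4 without MBV replicate 3, adding Cebpb, Stat3 and Myc, and 4 without PBS replicate 3, adding Cebpb, Stat3 and Il2rg, all higher. In fluvastatin it was 2 without PBS replicate 3 or fluvastatin replicate 1. Of 19 further effector and surface genes tested, 1 was called in fluvastatin and 3 in MBV, also below the shares of all genes. Igf1, a growth factor of microglia and macrophages, fell by 0.37 in fluvastatin and 0.40 in MBV (edgeR FDR 0.00628 and 0.00338). In MBV, Tgm2, a transglutaminase, rose by 0.70 (FDR 0.0486) and Lyve1, a hyaluronan receptor of border macrophages and lymphatic vessels, fell by 0.43 (FDR 0.0488), both close to the threshold. Igf1 was called with any single library left out, and it was the only call in MBV without PBS replicate 1, PBS replicate 2 or MBV replicate 1. Without MBV replicate 3, Lyve1 was not called and Cd36 and F13a1 were called lower. In fluvastatin a second call came without PBS replicate 3 (Tgm2, higher) or fluvastatin replicate 1 (F13a1, lower).

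Of 15 genes of the opposite, classical state, 1 was called in each comparison with PBS, below the share of all genes. Cxcl10, a chemokine gene induced by interferon, rose in fluvastatin by 2.72 on the log2 scale (edgeR FDR 0.0299), although its counts of 84, 7 and 74 overlapped the 6, 8 and 15 of PBS. The chemokine gene Ccl5 rose in MBV by 2.39 (FDR 0.017), with 20, 6 and 29 counts against 4, 4 and 4. The Cxcl10 call was lost without PBS replicate 1, PBS replicate 2 or fluvastatin replicate 3, and the Ccl5 call without PBS replicate 1 or 2. In MBV the count was 2 without MBV replicate 2, adding Fcgr1, and 3 without MBV replicate 3, adding Il6 and Cxcl10, all higher.

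Over the 7 pathway lists, 89 genes were tested, of which 14 (15.7%) were called in fluvastatin and 17 (19.1%) in MBV against PBS, below the 19.6% and 26.1% of all genes. With single libraries left out these counts were 8 to 18 and 12 to 32, with 8 in fluvastatin without PBS replicate 1 or fluvastatin replicate 2, and 32 in MBV without MBV replicate 3. Between MBV and fluvastatin edgeR called 0 of 89, beside 0.0588% of all genes. An unadjusted p under 0.05 was found for 10 of the 89, beside 10.7% of all genes, while DESeq2 was not run on these lists. Without MBV replicate 3, 4 were called, Cebpb, Tgfb2 and Smad3 higher and Odc1 lower in MBV, where 1.06% of all genes were.

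**Figure D4:**
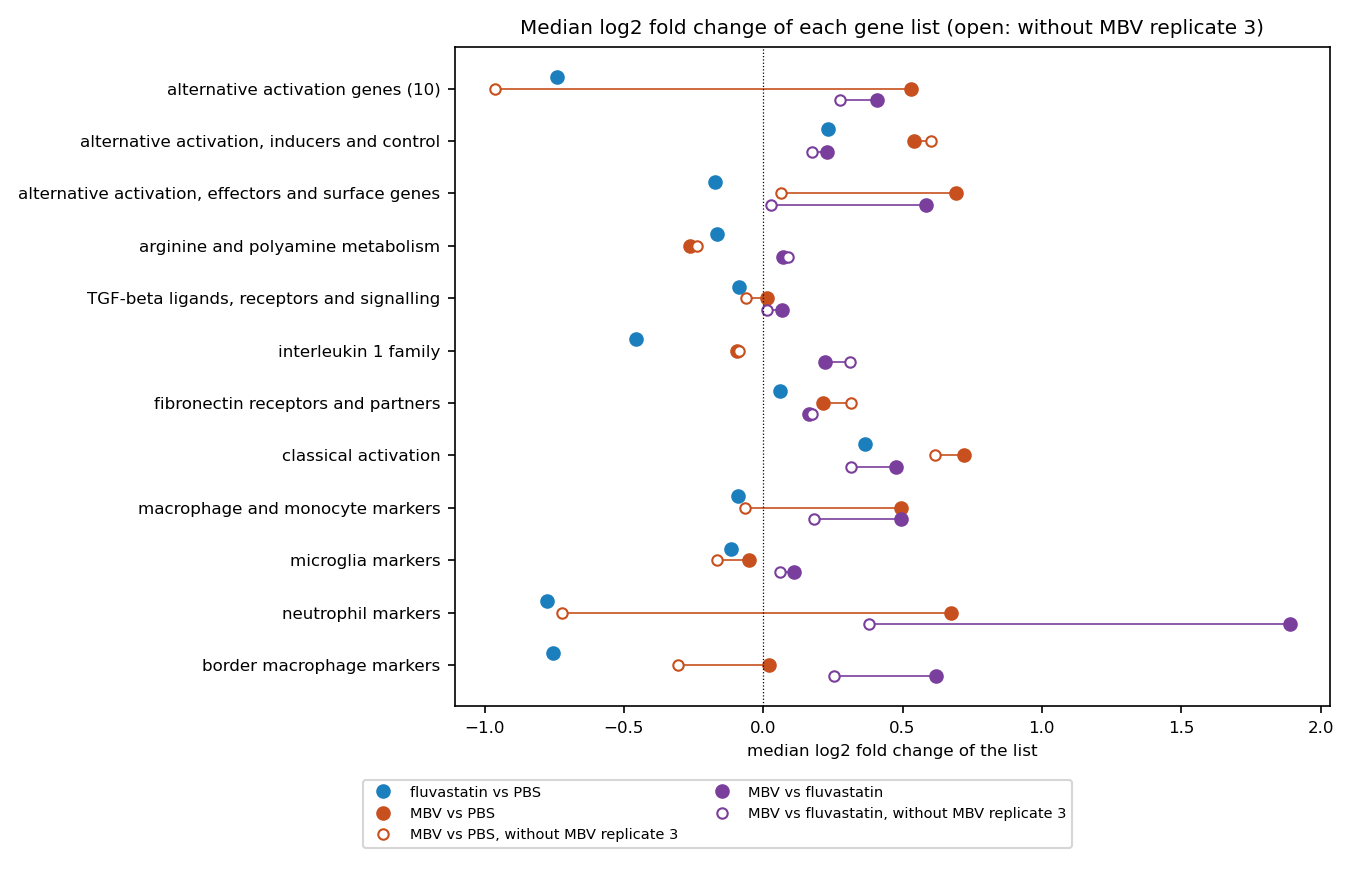
Median log2 fold change of the 10 genes, of the 7 pathway lists and of 4 immune cell marker lists in 3 comparisons. Filled symbols use all libraries of the groups compared and open symbols leave out MBV replicate 3, without which the median of the 10 genes in MBV against PBS goes from 0.53 to -0.96.

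Genes with the pattern most like a member were found by Spearman's rho of CPM over the 9 libraries among 13159 genes with a mean of at least 50 counts. Vsir (0.98), Fcgr3 (0.93) and Cd33 (0.92) were most like Arg1. Serping1 (1.0), C4b (0.98) and Gbp6 (0.98) were most like Mrc1, and Timp2 (0.97), Itpkb (0.95) and Tnxb (0.95) most like Msr1. For Fn1, Agrn, Samd1 and Ncoa3 were among 5 genes with the same order of libraries, a rho of 1.0. The points share libraries and group differences, and with 9 libraries and so many genes, high values arise readily.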

How the data were processed

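RNA was extracted from whole retinas, libraries were made with the TruSeq Total RNA kit and sequenced with 75-base paired-end reads. The authors processed the reads in CLC Genomics Workbench v22.0.2 against GRCm39 and deposited 4 tables of raw counts per gene, without normalization. The tables also hold the authors' fold changes, p-values and FDRs, which were not used. In the table of the combined treatment, 6 count columns name no library and were not used, so the planned comparisons with that treatment, the average effects and the interaction were not run. The 9 columns that repeat a library were identical. CPM was counts per 1000000 counts of the library.

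The 10 genes and the gene lists were chosen with earlier results of these data known. Genes named from the lists were those past the FDR threshold, at most 4 per list and comparison, all 10 members were described, and the 3 genes most like Arg1, Mrc1, Msr1 and Fn1 were taken over 9 libraries instead of the planned 12, with ties set by Pearson's r of log2(CPM + 0.5), a choice made after the data were seen. Genes with at least 1 count were tested in fits of 2 groups in R 4.3.3 with edgeR 4.0.16 (TMM, quasi-likelihood test, Benjamini-Hochberg adjustment). TMM factors were 0.987 to 1.03, and the coefficient of variation between replicates was 7.78% to 10.1%. Counting intervals are exact 95% intervals that take in the error of counting alone, as no molecular identifiers mark PCR copies, and 3 counts or fewer in every library was treated as the limit of detection. Alternatives used DESeq2 1.42.0, other normalization, stricter filters on low counts, a fold threshold of 2, leaving out each library and a replicate block. On simulated counts, 71.6% to 82.1% of genes changed 1.5-fold and 100% of those changed 2-fold were recovered. Only genes with a mean of at least 50 counts were changed, and all genes had the same set spread. Arg1, Mrc1, Msr1, Il1rn, Chil3, Cd163 and Retnla had lower means, so the recovery does not apply to them. Exon lengths came from GENCODE M39, positions from the deposited tables, and no other gene of the tables overlapped a member. Python 3.11.15 with pandas 2.3.3 was used for the rest. A listed gene is not reported here by name.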

Additional observations from a re-analysis of the deposited data

How the results depend on the processing

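For fluvastatin against PBS, 2 of the 10 genes were called, and this count was 1 with DESeq2 (Fn1, with Msr1 given no adjusted p), 1 with a fold change of at least 2 as well (Msr1), and 1 with all 9 libraries in 1 fit (Fn1), an alternative chosen after seeing the data. Leaving out single libraries gave 1 to 3. For MBV against PBS, 2 were called, 1 with the fold threshold (Fn1), 3 with all 9 libraries (adding Tgfb1, FDR 0.0435), and 2 to 3 with single libraries left out. For MBV against fluvastatin the count was 0 in all 13 alternatives, while over all genes 1.06% were called without MBV replicate 3 and 0.652% with DESeq2, against 0.0588%. The cause of these differences was not tested. Leaving out single libraries from the gene lists was also chosen after seeing the data.

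With a replicate block the counts were 0 for MBV against fluvastatin, 2 for fluvastatin against PBS and 2 for MBV against PBS, so no call of a member changed. The replicate numbers mark no shared animal or day in the labels. Deviations of the 9 same-numbered pairs correlated between -0.446 and 0.23, and 1 of 9 was over 0.1. Pairs with unlike numbers reached 0.443, for fluvastatin replicate 3 and MBV replicate 2. With so few libraries per group, these values cannot show whether same-numbered samples shared an animal or day.

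Under a stricter filter (filterByExpr), 4 members were tested for MBV against fluvastatin and 6 in each comparison with PBS, and Chil3, Retnla, Cd163 and Il1rn were never among them. At a few counts per library, differences of these 4 genes were not detectable unless large. The comparisons that need the combined treatment, and the fit of all 12 libraries, were not run.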
